A study of Mus musculus with 8 samples.

Results

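The mRNAs measured here are those of 9 genes that build or break down glycogen: Ugp2, Gys1, Gys2, Gbe1, Pygl, Pygb, Pygm, Ppp1r3c and Ppp1r3d. They are a list of names, drawn up with earlier results of these data known. Each was read by the probe set (a group of array probes for 1 gene) that carries its symbol alone. Each gene had 1 such probe set, and all 9 were above the dim limit in all 8 arrays. They were 9 of 22180 genes with a symbol of their own and 9 of the 13223 genes tested. The dim limit, 2.88 on the log2 scale, is the level that 95% of the values from 1400 smell and pheromone receptor probe sets stay under.

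Glycogen is a branched store of glucose. UDP-glucose pyrophosphorylase (Ugp2) makes the activated sugar, glycogen synthase (Gys1 in most tissues, Gys2 mainly in liver and fat) adds it to the chain, and the branching enzyme (Gbe1) sets the branches. Glycogen phosphorylase, with a liver (Pygl), a muscle (Pygm) and a brain (Pygb) form, releases glucose 1-phosphate. Targeting subunits such as Ppp1r3c (PTG) and Ppp1r3d bring protein phosphatase 1 to the particle, where it activates the synthase and switches off the phosphorylase. Brown fat stores glycogen when insulin is high after a meal.

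The tissue was brown fat from male C57BL/6J mice, 3 labelled wild type (WT) and 5 labelled Abhd15 KO (below, the knockout-labelled arrays), with no allele or construct stated. Both groups were given chow again for 1 h after a night without food. One label gives an age of 14 weeks and another up to 14 weeks on the diet. No litter, cage or batch is labelled, so the p-values measure the spread between these mice only. Each Affymetrix Mouse Gene 2.0 ST array held 200 ng of total RNA from 1 mouse, and the values are log2 RMA signals, so a difference of 1 is a 2-fold change. Probe sets differ in brightness, so levels are compared between arrays for 1 gene and never between genes.

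Whole-series facts bear on what follows. Array medians lay between 3.00 and 3.04. Abhd15 itself read 6.01 ± 0.19 in WT (SD, n = 3) and 6.12 ± 0.27 (SD, n = 5) in the knockout-labelled arrays. Abhd15 had 2 probe sets with its symbol alone, and only the one of higher mean is given. Which part of the gene was deleted is unknown here, so this probe set checks nothing. The other one was not examined, and each direction below rests on the labels. The brown fat marker Ucp1 read 12.51 to 12.89 and the adipocyte marker Adipoq 8.70 to 9.0. All 9 measured brown adipocyte markers and all 7 adipocyte markers were above the dim limit in every array. Skeletal muscle genes were also present: 24 of 30 were above the dim limit in every array, and their mean level ran from 5.07 to 7.75 in WT and from 4.50 to 6.95 in the knockout-labelled arrays. Of 8 hepatocyte markers, 4 were above the dim limit in every array, and the mean level of the 8 was 4.39 to 4.93 in WT. In the other group it was 4.41 to 4.95. The 10 macrophage markers, all above the limit in every array, had mean levels of 5.04 to 5.73 and 4.69 to 5.45. Of 8 neutrophil markers, 6 were below the dim limit in all arrays.

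The promoters of 4 genes are shown. By the values below, Pygm and Ppp1r3a varied together with the muscle genes, and Ppp1r3c was lowest in the same arrays as Hk2. Ppp1r3d, not set apart by its values, is the other listed targeting subunit. Each is the 250 bases before the transcription start in RefSeq (GRCm38.p6), 5′ to 3′ on the gene's strand. Capitals mark E-boxes (CANNTG, the letters read by myogenic and other helix-loop-helix factors) and matches to the MEF2 consensus, searched on both strands. The E-box CACGTG is 1 form of CANNTG and is counted under both.
Pygm, chr19:6384158-6384407, plus strand: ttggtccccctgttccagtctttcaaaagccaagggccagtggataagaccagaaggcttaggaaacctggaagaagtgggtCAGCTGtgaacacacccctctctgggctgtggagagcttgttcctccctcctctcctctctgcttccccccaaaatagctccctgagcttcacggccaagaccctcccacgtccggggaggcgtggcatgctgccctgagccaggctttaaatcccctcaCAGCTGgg
Ppp1r3a, chr6:14755275-14755524, minus strand: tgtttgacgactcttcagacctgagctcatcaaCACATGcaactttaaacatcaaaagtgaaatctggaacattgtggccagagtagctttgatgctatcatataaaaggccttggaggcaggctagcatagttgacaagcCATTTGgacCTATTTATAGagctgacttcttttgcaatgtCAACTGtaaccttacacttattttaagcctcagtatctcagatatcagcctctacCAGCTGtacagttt
Ppp1r3c, chr19:36736605-36736854, minus strand: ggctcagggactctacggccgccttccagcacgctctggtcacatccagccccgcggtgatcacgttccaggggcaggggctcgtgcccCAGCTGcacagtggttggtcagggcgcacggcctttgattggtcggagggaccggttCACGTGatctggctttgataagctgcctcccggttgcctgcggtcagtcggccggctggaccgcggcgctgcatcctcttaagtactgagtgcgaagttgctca
Ppp1r3d, chr2:178414464-178414713, minus strand: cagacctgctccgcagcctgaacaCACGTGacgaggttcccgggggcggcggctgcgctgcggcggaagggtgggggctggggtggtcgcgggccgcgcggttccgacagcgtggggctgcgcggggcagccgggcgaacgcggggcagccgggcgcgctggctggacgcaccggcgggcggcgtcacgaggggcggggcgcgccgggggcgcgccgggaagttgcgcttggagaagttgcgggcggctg

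Pygm held 2 E-boxes and no MEF2 match, and Ppp1r3a held 4 E-boxes and 1 MEF2 match. Ppp1r3c held 2 E-boxes and Ppp1r3d 1, and in both one of them was CACGTG. Hk2, which shared the lowest arrays of Ppp1r3c, held no CANNTG in its window, and Phkg1, another muscle form, held 5 E-boxes and no MEF2 match. Of 32841 promoter windows of the same length, 66.2% held CANNTG, 6.0% CACGTG and 2.9% a MEF2 match. The table had a promoter for 8 of the 9 genes, all but Gys2. A match is a run of letters, not a shown binding site.

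Of the enzymes of synthesis, Gys1, Gbe1 and Ugp2 spanned 1.13-fold to 1.30-fold over the 8 mice, and Gys2 spanned 1.76-fold. Here and below, values follow the replicate numbers of the labels. Ugp2 read 9.03, 9.37 and 8.99 in WT and 9.12, 9.17, 9.27, 9.04 and 9.18 in the knockout-labelled arrays. WT replicates 2 and 3 were its highest and lowest arrays, so the WT group spanned the other one. The means were 9.13 ± 0.21 (SD, n = 3) and 9.16 ± 0.09 (SD, n = 5), which differ by 0.03 (95% confidence interval −0.25 to 0.30). The sign of this small difference turned without WT replicate 1, without WT replicate 3 or without Abhd15 KO replicate 3.

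Gys1, the widely expressed synthase, was the steadiest of the 9. It read 9.30, 9.30 and 9.26 in WT and 9.19, 9.31, 9.35, 9.22 and 9.18 in the knockout-labelled arrays. Its 8 values lay within 0.17 log2, or 1.13-fold, and 0.976% of the tested genes had a smaller SD over the arrays. The difference was −0.03 (−0.25 to 0.19), and the groups overlapped.

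Gbe1, the branching enzyme, read 9.49, 9.72 and 9.54 in WT and 9.52, 9.61, 9.73, 9.63 and 9.78 in the knockout-labelled arrays. Its whole range was 0.29 log2. The difference was 0.07 (−0.18 to 0.32), less than the SD within either group (0.12 and 0.11), and it ran from 0.025 without WT replicate 1 to 0.14 without WT replicate 2.

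Gys2 had the lowest unadjusted p of the 9 genes, and it did not pass the test. It read 7.86, 8.0 and 8.20 in WT and 8.40, 8.17, 8.68, 8.22 and 8.28 in the knockout-labelled arrays. In that group 4 of 5 arrays lay above the highest WT array, and Abhd15 KO replicate 2 lay just below it, so the groups overlapped. The means were 8.02 ± 0.17 (SD, n = 3) and 8.35 ± 0.20 (SD, n = 5). The difference of 0.33 (0.00 to 0.65), or 1.25-fold, had an unadjusted p of 0.0494 in limma, an adjusted p of 0.9997 and an exact two-sided permutation p of 0.0714.

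Over the 18 alternative settings the Gys2 difference ran from 0.24 to 0.42. Its unadjusted limma p was below 0.05 in 7 of the 18, with a range of 0.0211 to 0.174, and its adjusted p ran from 0.9497 to 1.00. The 18 are not separate checks. The other dim filters, trend and robust fitting and the mean of all probe sets leave the Gys2 difference unchanged. Of all tested genes, 89.8% had a smaller absolute difference.

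**Figure D1:**
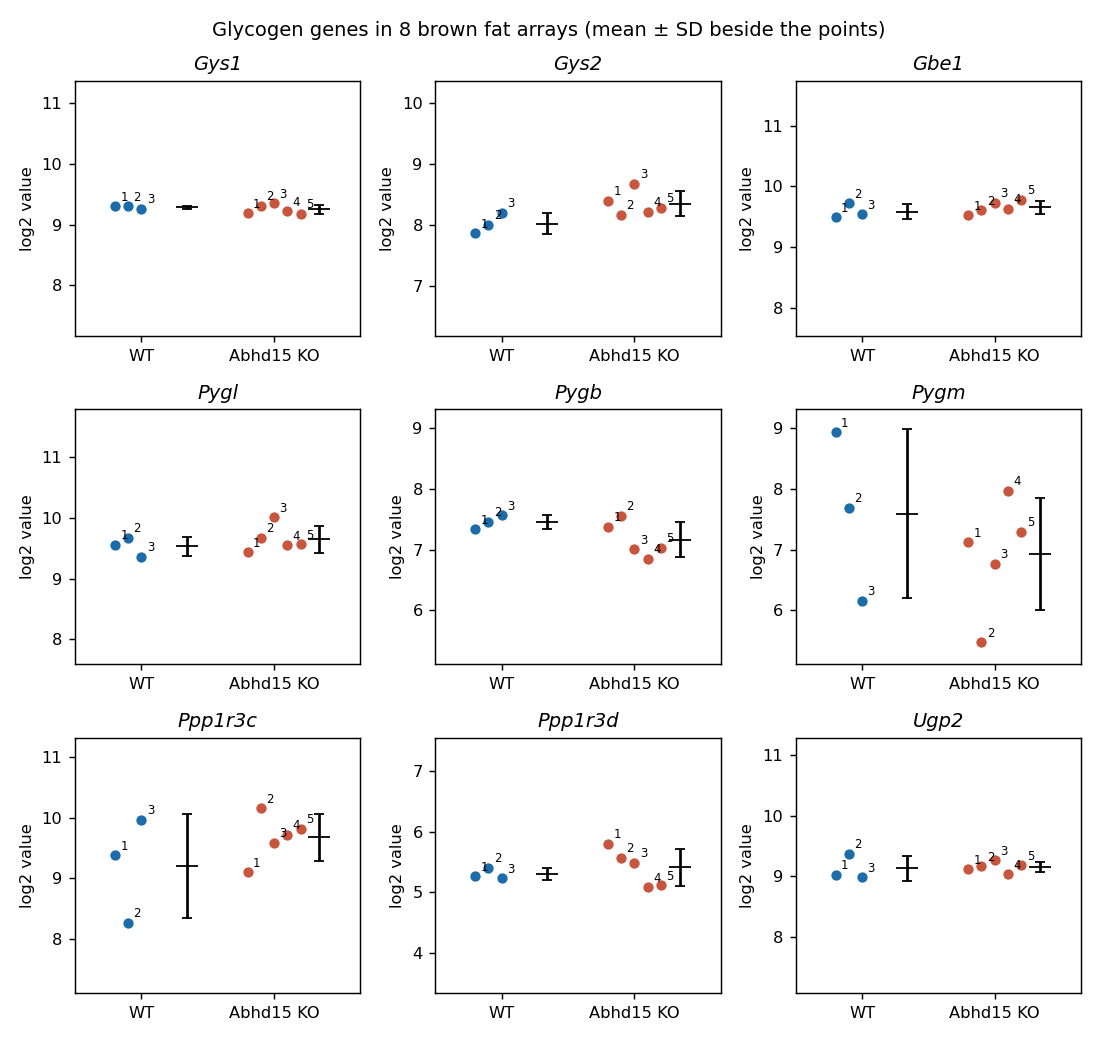
Log2 value of each glycogen gene (y axis, the same 4.2 log2 span in every panel) in WT (blue) and in the knockout-labelled arrays (red), with replicate numbers beside the points and the mean ± SD at the right of each group. Pygm spans 3.46 log2 and Ppp1r3c 1.89, while Gys1 spans 0.17, and in none of the 9 panels are the groups apart.

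Of the phosphorylases, the liver form was the more even and the muscle form the most variable of all 9 genes. Pygl read 9.56, 9.67 and 9.36 in WT and 9.43, 9.67, 10.01, 9.55 and 9.57 in the knockout-labelled arrays. Abhd15 KO replicate 3 was highest, and it was also the highest array for Gys2. The means were 9.53 ± 0.16 and 9.65 ± 0.22 (SD, n = 3 and 5), and the difference was 0.12 (−0.22 to 0.45). It was 0.025 when Abhd15 KO replicate 3 was dropped and 0.029 when WT replicate 3 was.

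Pygb, the brain form, was lowest in 3 arrays of 1 group. It read 7.34, 7.46 and 7.57 in WT and 7.38, 7.56, 7.01, 6.85 and 7.03 in the knockout-labelled arrays. Replicates 3, 4 and 5 of the latter lay below every WT array, and replicates 1 and 2 lay inside the WT range. The means were 7.46 ± 0.12 (SD, n = 3) and 7.17 ± 0.29 (SD, n = 5). The difference of −0.29 (−0.67 to 0.10), or 0.818-fold, had an exact two-sided permutation p of 0.196 and a limma adjusted p of 0.9997. Over the 18 alternatives the difference ran from −0.39 to −0.14, with a limma adjusted p of 0.946 to 1.00. The unadjusted limma p was below 0.05 in 2 of the 18, with a range of 0.0267 to 0.503.

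Pygm, the muscle form, spread 11.04-fold over the 8 mice. It read 8.94, 7.69 and 6.16 in WT and 7.12, 5.48, 6.77, 7.97 and 7.30 in the knockout-labelled arrays. The highest array was WT replicate 1 and the lowest Abhd15 KO replicate 2, and the groups covered 2.78 and 2.5 log2. Of the tested genes, 99.6% had a smaller SD. The means were 7.60 ± 1.39 (SD, n = 3) and 6.93 ± 0.92 (SD, n = 5), and the difference was −0.67 (−2.14 to 0.80, exact two-sided permutation p = 0.446). Dropping WT replicate 1 made the difference 0.0027, dropping WT replicate 3 made it −1.39, and dropping Abhd15 KO replicate 2 made it −0.31.

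**Figure D2:**
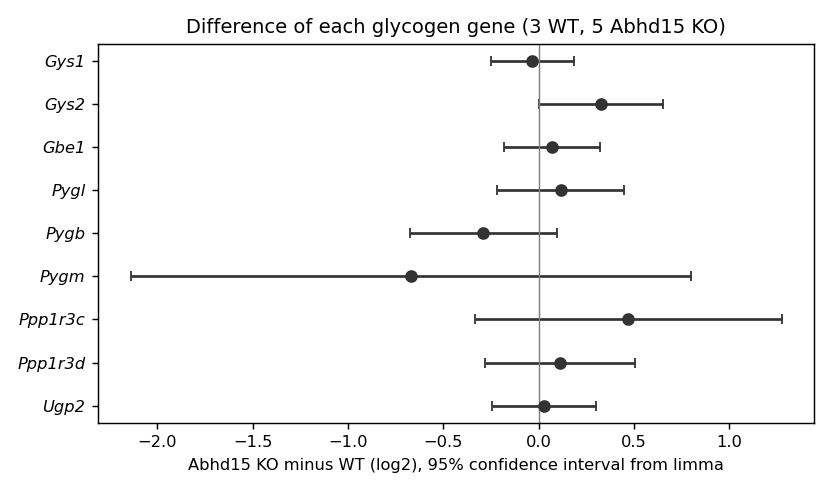
Difference between the knockout-labelled arrays and WT (x axis, log2) for each glycogen gene, with the 95% confidence interval from limma (3 and 5 arrays). The interval of Gys2 starts at 0.00 and the other 8 include 0, and the interval of Pygm runs from −2.14 to 0.80.

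Pygm followed the skeletal muscle genes from array to array. The mean of the 30 muscle genes, none of them a glycogen gene, was 1.60, 0.53 and −1.08 in WT and −0.11, −1.65, −0.32, 0.80 and 0.22 in the knockout-labelled arrays, each relative to the genes' own means. The 8 arrays had the same order in Pygm and in this mean. Over them Pearson's r was 0.997 (exact permutation p = 2e-05, the smallest that 40320 pairings allow, and 0.00022 after adjustment over 9 relations). Spearman's rho was 1.00 (exact permutation p = 5e-05, adjusted 0.00045). Without the 2 arrays farthest from the median, WT replicate 1 and Abhd15 KO replicate 2, r was 0.996.

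The slope was 1.04 log2 of Pygm per log2 of the muscle mean. The skeletal actin gene Acta1, the fast-fibre myosin gene Myh4 and the creatine kinase gene Ckm spanned 3.79, 3.57 and 2.92 log2 over the same arrays. With the muscle mean as a covariate, the Pygm difference between the groups was −0.09. All 30 muscle genes had a lower mean in the knockout-labelled arrays, beside 51.7% of all tested genes with a higher one. They were read in the same 8 arrays, so these are not 30 separate results. The mean of the 30 differed by −0.56 (exact two-sided permutation p = 0.5). In bulk tissue, the number of muscle fibres in a sample and the amount of these mRNAs per fibre cannot be told apart.

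The other 8 glycogen genes showed no such relation past the test. Their r with the muscle mean ran from −0.50 (Ppp1r3c) to −0.03 (Gbe1 and Pygl), with adjusted exact permutation p from 0.621 to 0.944. Pygb had r = −0.45 and rho = −0.55 over 8 arrays (exact permutation p = 0.256 and 0.171). Gys1, which muscle also uses, had r = −0.18 and rho = −0.26 (exact permutation p = 0.660 and 0.536).

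**Figure D3:**
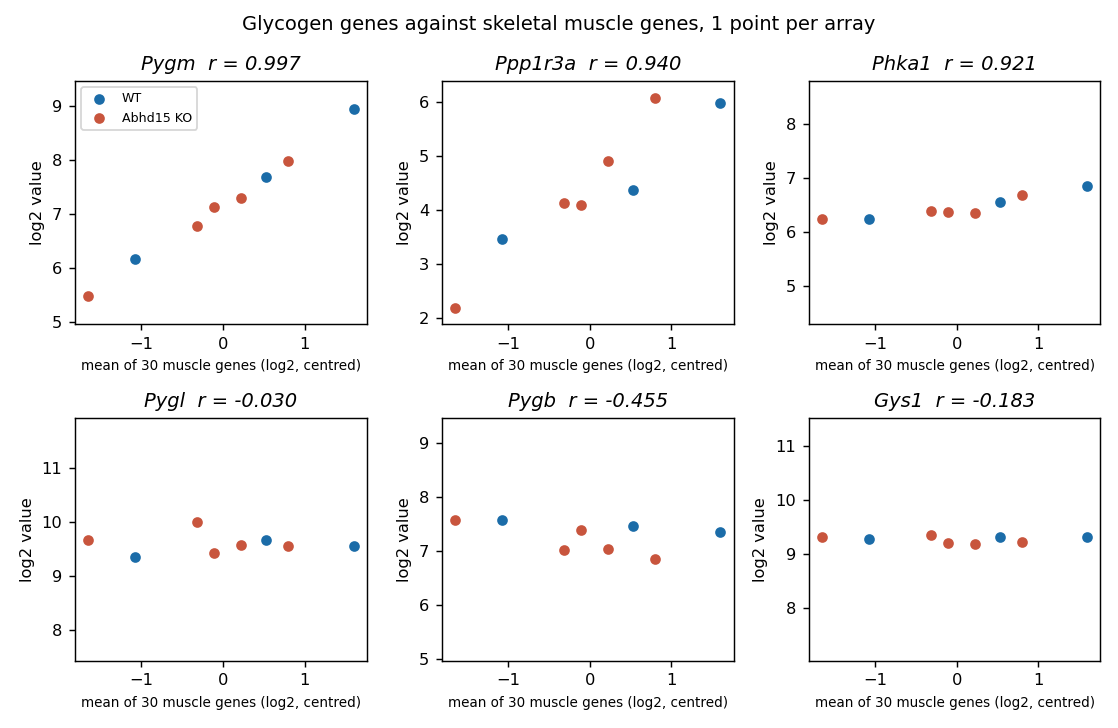
Log2 value of 6 glycogen genes (y axis, 4.5 log2 span) against the centred mean of 30 skeletal muscle genes (x axis, log2), 1 point per array, WT in blue and the knockout-labelled arrays in red, with Pearson's r over 8 arrays. Pygm lies close to a line (r = 0.997), Ppp1r3a and Phka1 rise with the muscle mean (0.940 and 0.921), and Pygl, Pygb and Gys1 do not.

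Of the targeting subunits, Ppp1r3c (PTG) varied 3.71-fold between mice and Ppp1r3d 1.64-fold. Ppp1r3c read 9.38, 8.27 and 9.97 in WT and 9.10, 10.16, 9.59, 9.72 and 9.82 in the knockout-labelled arrays. WT replicate 2 and Abhd15 KO replicate 1 were its lowest arrays, and they were the lowest for Angptl8 too (7.95 and 7.90, against 10.42 to 10.81 in the others). Angptl8 is a feeding-induced gene whose product acts on lipoprotein lipase. The means of Ppp1r3c were 9.21 ± 0.87 (SD, n = 3) and 9.68 ± 0.38 (SD, n = 5), a difference of 0.47 (−0.33 to 1.28, exact two-sided permutation p = 0.339).

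That difference rested on single mice. Without WT replicate 2 it was 0.0015, without WT replicate 3 it was 0.85, and without both WT replicate 2 and Abhd15 KO replicate 1 it was 0.15. Ppp1r3d read 5.27, 5.41 and 5.23 in WT and 5.80, 5.57, 5.49, 5.09 and 5.12 in the knockout-labelled arrays, a difference of 0.11 (−0.28 to 0.50). Dropping Abhd15 KO replicate 1 made it 0.014, and dropping Abhd15 KO replicate 4 made it 0.19. In this gene Abhd15 KO replicate 1 was the highest array, not one of the lowest. The knockout-labelled arrays lay on both sides of the narrow WT range, 3 above and 2 below.

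Pairs of isoforms were also set against each other inside each array, which shows unequal change and not which form is more abundant. Gys2 minus Gys1 was −1.43, −1.29 and −1.06 in WT and −0.79, −1.14, −0.67, −1.0 and −0.90 in the knockout-labelled arrays, with 4 of 5 above the highest WT array. The means were −1.26 ± 0.19 (SD, n = 3) and −0.90 ± 0.18 (SD, n = 5). Since Gys1 hardly varied, this gap is close to that of Gys2 alone.

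Pygl minus Pygb was 2.23, 2.21 and 1.79 in WT and 2.05, 2.11, 3.00, 2.70 and 2.54 in the knockout-labelled arrays. Replicates 3 to 5 of the latter lay above the WT range, and these are the arrays lowest in Pygb. The groups overlapped. Pygl minus Pygm ran from 0.62 to 4.20 and Pygb minus Pygm from −1.61 to 2.08 over the 8 arrays. Ppp1r3c minus Ppp1r3d was 3.90 ± 0.96 in WT and 4.26 ± 0.59 in the knockout-labelled arrays (SD, n = 3 and 5).

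Counted together, 0 of the 9 glycogen genes passed an adjusted p of 0.05 in limma, where 0 of all 13223 genes (0%) did. At an unadjusted p below 0.05 there was 1 of 9, Gys2, against 3.99% of all genes tested (2.23% higher and 1.76% lower in the knockout-labelled arrays). Of the 9, 6 had a higher mean in the knockout-labelled arrays and 3 a lower one, with a median difference of 0.07, beside 51.7% higher and a median of 0.01 over all genes tested. In 0 of 9 the groups did not overlap, against 2.77% of all genes. The confidence interval reached 0.33 log2 to each side in the median glycogen gene, and was narrower in Gys1, Gbe1, Ugp2 and Gys2 and widest in Pygm.

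The wider list held 48 other genes of glycogen handling, of which 37 were tested. Another 4 were not above the dim limit in 3 arrays, 2 (Pgm1 and Gsk3a) were read only by probe sets that name several genes, and 5 had no named probe set here. Of the 37, 22 had a higher and 15 a lower mean in the knockout-labelled arrays, with a median difference of 0.04, beside 51.7% higher over all genes tested. By limma 0 passed the adjusted threshold and 1 of 37 had an unadjusted p below 0.05, no larger a share than the 3.99% over all genes.

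That gene was Stbd1, whose protein binds glycogen and is linked to its delivery to lysosomes. It read 3.75, 3.74 and 3.54 in WT and 4.01, 4.08, 3.76, 4.82 and 4.27 in the knockout-labelled arrays. Every array of the second group lay above every WT array, the nearest by 0.01 log2 only, an order that 2.77% of all tested genes showed in one direction or the other. The difference was 0.51 (0.03 to 1.00), with an unadjusted p of 0.0394 and an adjusted p of 0.9997 in limma and an exact two-sided permutation p of 0.0536. Its unadjusted limma p was below 0.05 in 10 of the 18 alternatives, with a range of 0.0145 to 0.117. The settings that leave the Gys2 difference unchanged do so for Stbd1 too. Its levels were less than 2 log2 above the dim limit of 2.88.

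Next by unadjusted p came genes whose intervals include 0. The phosphomutase Pgm2 differed by 0.20 (−0.06 to 0.47), and Phkg2, a catalytic subunit of phosphorylase kinase, by 0.17 (−0.07 to 0.41). The phosphatase catalytic subunit Ppp1cc differed by −0.27 (−0.72 to 0.17). The synthase kinases Csnk2a2 and Gsk3b differed by −0.14 (−0.38 to 0.09) and −0.16 (−0.43 to 0.11). In each of them the groups overlapped. In Pgm2 and Phkg2, 4 of 5 knockout-labelled arrays lay above the highest WT array. In Ppp1cc and Csnk2a2, 3 of 5 lay below the lowest WT array, and in Gsk3b 2 of 5 did. The exact two-sided permutation p was 0.107 for Pgm2, 0.0536 for Phkg2, 0.232 for Ppp1cc, 0.0714 for Csnk2a2 and 0.143 for Gsk3b. The genes of glucose phosphate supply and the glycogenin primer had 4 of 5 tested members higher, phosphorylase kinase 3 of 5, the phosphatase group 4 of 9, the synthase kinases 7 of 11 and glucose 6-phosphate exit 2 of 3, with 0 past the adjusted threshold in any of these groups. Laforin (Epm2a) and malin (Nhlrc1), which act on abnormal glycogen, differed by −0.08 (−0.48 to 0.31) and 0.06 (−0.47 to 0.58).

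**Figure D4:**
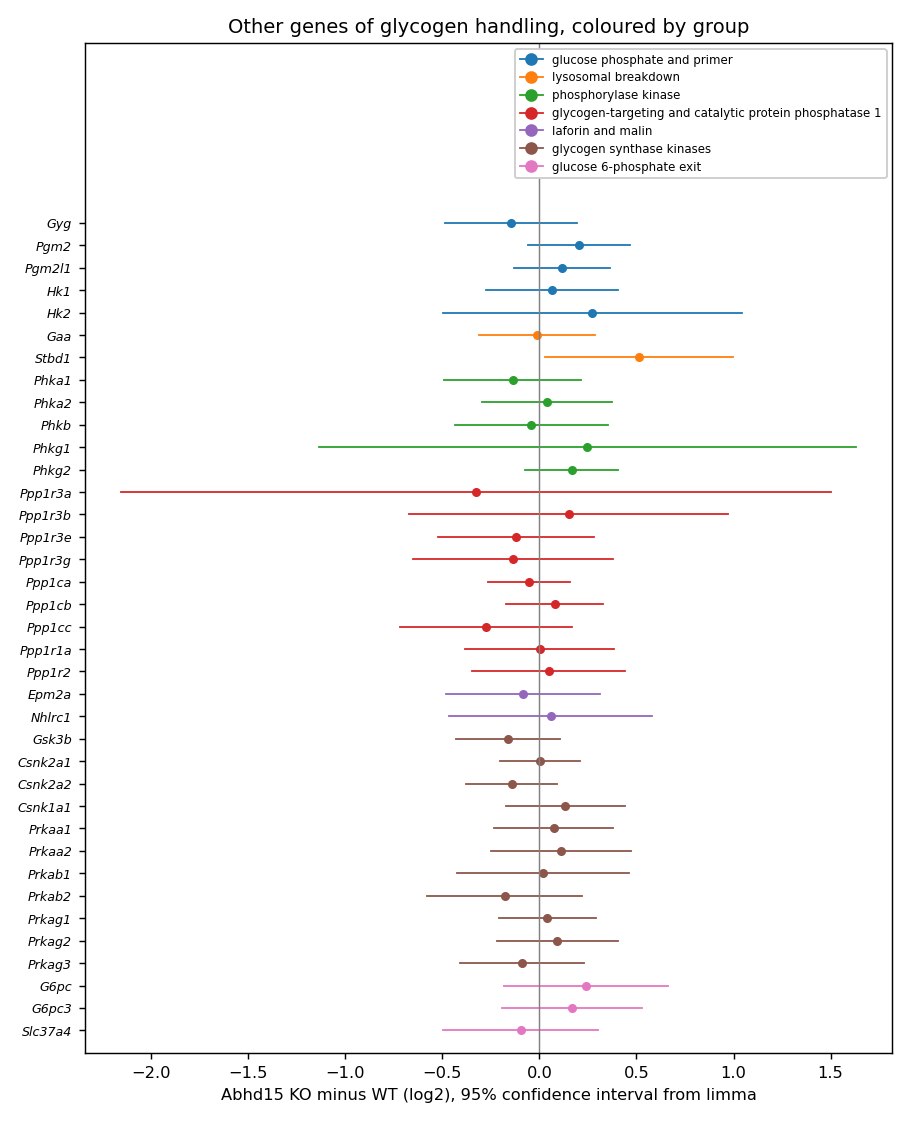
Difference between the knockout-labelled arrays and WT (x axis, log2) for the 37 tested other genes of glycogen handling, coloured by group, with 95% confidence intervals from limma (3 and 5 arrays). The interval of Stbd1 (0.03 to 1.00) lies above 0, and the widest are those of Ppp1r3a (−2.15 to 1.5) and Phkg1 (−1.14 to 1.63).

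In this wider list Ppp1r3a and Phkg1 spread widely over the mice, as Pygm did, and Phka1 did not. Ppp1r3a, the targeting subunit of muscle, read 5.99, 4.38 and 3.47 in WT and 4.10, 2.20, 4.13, 6.09 and 4.91 in the knockout-labelled arrays. Abhd15 KO replicate 2, the lowest array for the muscle genes, was below the dim limit. Its r with the muscle mean was 0.940 (exact permutation p = 0.00136, and 0.0252 adjusted over 37 relations), and rho was 0.929 (adjusted exact permutation p = 0.0826). Without the 2 farthest arrays r was 0.850.

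Phka1, the muscle form of the phosphorylase kinase regulatory subunit, read 6.84, 6.55 and 6.24 in WT and 6.36, 6.24, 6.39, 6.68 and 6.35 in the knockout-labelled arrays. Its range was 0.60 log2, with a slope of 0.19 log2 per log2 of the muscle mean. It had r = 0.921 (adjusted exact permutation p = 0.0252) and rho = 0.881 (adjusted exact permutation p = 0.132). Phkg1, the catalytic subunit of muscle, ran from 3.37 in WT replicate 3 to 6.00 in Abhd15 KO replicate 4, with r = 0.803 and rho = 0.690 (adjusted exact permutation p = 0.182 and 0.439). Phka2 and Phkg2, the forms named for liver, had r = 0.448 and 0.123, with rho = 0.286 and −0.048 (adjusted exact permutation p = 0.891 and 0.991 for r). High values were not confined to the muscle forms. The synthase kinase Csnk2a2 had r = 0.791 and rho = 0.857 (adjusted exact permutation p = 0.182 and 0.132), and r = 0.461 without the 2 farthest arrays. In Ppp1r3a and Phkg1 the difference between the groups, −0.33 (−2.15 to 1.5) and 0.25 (−1.14 to 1.63), changed sign when single arrays were left out.

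Several genes shared the lowest arrays of Ppp1r3c. Ppp1r3b, the targeting subunit of liver, read 9.36, 8.44 and 9.91 in WT and 8.50, 9.84, 9.54, 9.45 and 9.61 in the knockout-labelled arrays. The second probe set of Ppp1r3b, not used for the test, had its lowest values in the same pair (7.36 and 7.23, against 8.46 to 9.24). Hk2, the hexokinase that insulin induces in muscle and fat, read 9.97, 8.97 and 10.02 in WT and 9.0, 10.21, 9.99, 10.01 and 10.42 in the knockout-labelled arrays. In both genes WT replicate 2 and Abhd15 KO replicate 1 lay at least 0.86 log2 below the other 6 arrays.

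The same order held for Ppp1r3g, Ppp1r1a (an inhibitor of protein phosphatase 1), Csnk1a1 and the AMP-activated kinase subunits Prkaa1, Prkab1 and Prkag1, with gaps of 0.07 to 0.33 log2. That makes 8 of 37 tested genes (21.6%), named after their values were seen, beside 7.65% of all tested genes. Among the 9 glycogen genes, 1 had this order, Ppp1r3c (11.1%). These 2 arrays were singled out by measured values, so no test is given. The differences between the groups were 0.15 (−0.67 to 0.97) for Ppp1r3b and 0.27 (−0.50 to 1.04) for Hk2. Without WT replicate 2 they were −0.25 and −0.07.

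**Figure D5:**
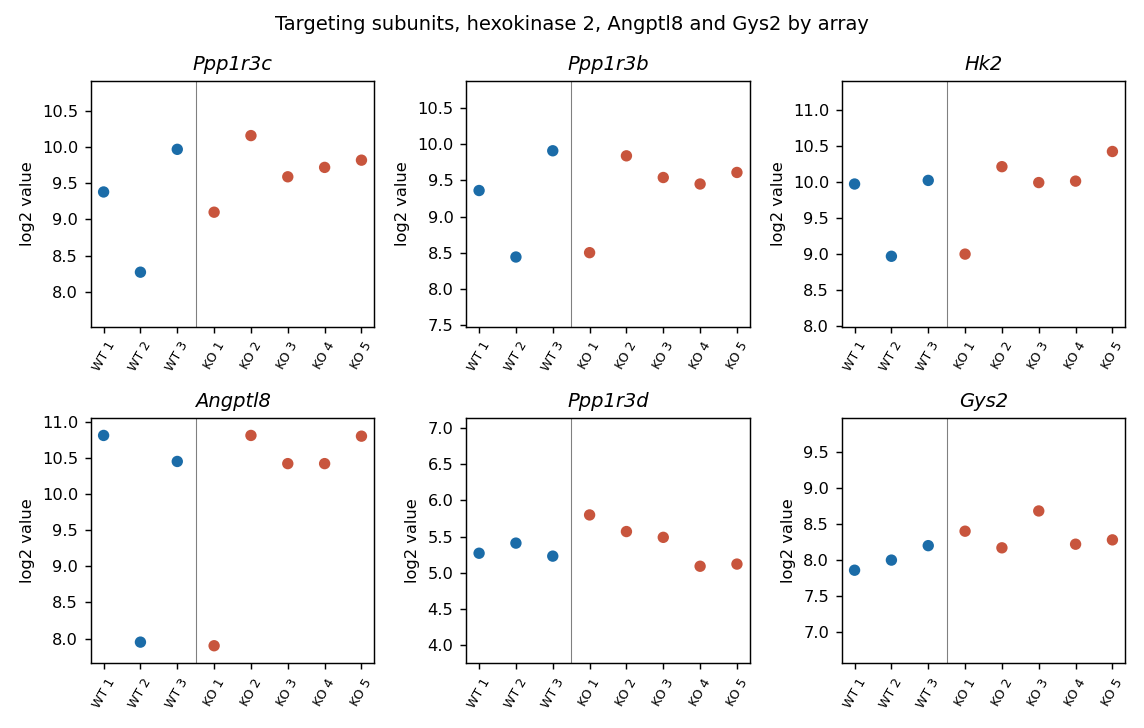
Log2 value (y axis, 3.4 log2 span) of Ppp1r3c, Ppp1r3b, Hk2, Angptl8, Ppp1r3d and Gys2 in each array (x axis), WT in blue and the knockout-labelled arrays (KO on the axis) in red. WT 2 and KO 1 are the lowest arrays in Ppp1r3c, Ppp1r3b, Hk2 and Angptl8, and not in Ppp1r3d or Gys2.

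For the 4 glycogen genes of largest SD, the 3 genes most like them among 12147 others were looked up by Pearson's r over the 8 arrays. These are the highest of many correlations and are given as a description, with no p. Pygm was most like Ryr1, the calcium release channel of muscle (r = 0.995), the muscle cytochrome oxidase subunit Cox6a2 (0.994) and the calcium pump Atp2a1 (0.989), all 3 of them on the muscle list. Ppp1r3c was most like Scaf4 (0.977), Dmtn (0.961) and Cdk17 (0.960), and without WT replicate 2 and Abhd15 KO replicate 1 these were 0.846, 0.95 and 0.956.

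Pygb was most like Hilpda, which encodes an inhibitor of the main triglyceride lipase (r = 0.972), Abcb10 (0.946) and Plce1 (0.942). Hilpda read 5.03, 4.97 and 5.18 in WT and 4.97, 5.21, 4.62, 4.23 and 4.54 in the knockout-labelled arrays. Its lowest arrays were replicates 3, 4 and 5 of that group, as in Pygb. Hilpda was picked for its likeness to Pygb over these arrays, so this is no separate result. Gys2 was most like Pcyox1l, Eif4a2 and Fxyd1 (0.932, 0.932 and 0.931). Without Abhd15 KO replicate 3 and WT replicate 1 these were 0.859, 0.824 and 0.919. In all 3 genes every knockout-labelled array lay above every WT array. Groups apart in either direction were seen in 2.77% of tested genes. That share is no yardstick here, since the 3 were picked for likeness to Gys2 over these same arrays. The whole range was 8.98 to 9.18 in Eif4a2 and 9.08 to 9.35 in Fxyd1.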

How the data were processed

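Brown fat RNA of 8 mice was read on 1-colour arrays. The deposited values are log2 RMA signals per probe set, and per the submitters' processing notes RMA and oligo were used, with no version given. The labels' design text also names Expression Console. Quantile normalization, a part of RMA, would hide a change shared by most genes. The array's genome build is unknown here, so gene coordinates are not printed, and promoter coordinates are those of RefSeq.

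Of 41345 probe sets, 23521 had 1 symbol in the platform annotation, of which 23328 matched RefSeq (GRCm38.p6) by Entrez identifier, and 1814 had several and named no gene. The highest-mean probe set stood for a gene. Genes above 2.88 log2 in at least 3 arrays were tested.

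Groups came from the sample titles. limma 3.58.1 in R 4.3.3 (lmFit, eBayes, 1 group term) gave differences, confidence intervals not adjusted for the number of genes, and Benjamini-Hochberg adjusted p over 13223 genes. Exact permutation tests used the 56 splits of 8 arrays into 3 and 5, which allow no p below 0.0179. Correlations over 8 arrays used all 40320 pairings. These ran in Python 3.11.15 with numpy 2.4.6 and scipy 1.17.1. Arrays give no read depth, and their number limits the precision. The steps were tested on simulated data.

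The 9 genes, the wider list and the marker lists were chosen with earlier results of these data known. The rule for named genes took all 9 genes, from the wider list the 6 of lowest unadjusted p and the 6 of largest SD over the arrays, and for the 4 glycogen genes of largest SD the 3 most alike genes, leaving out predicted models, microRNAs and small nucleolar RNAs. Other genes named were chosen after their values were seen. Alternatives tried were a replicate block, other dim filters, quantile normalization once more, median centring, trend and robust fitting, array weights, the mean of all probe sets, the muscle mean as a covariate, and leaving out each array. Leaving out both arrays lowest in Angptl8 and Ppp1r3c was added after the data were seen. The sample titles give both groups replicate numbers 1 to 3. Arrays of the same number correlated at −0.26, −0.10 and 0.02 in their deviations from the group means, so the numbers were not taken to pair mice.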

Additional observations from a re-analysis of the deposited data

Results flagged for a closer look

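Among the 5 arrays labelled Abhd15 KO, 3 of 46 genes examined had 1 array standing far from the other 4. That is close to the share of about 1 in 20 that chance gives, and all 3 genes are from the wider list. The array was Abhd15 KO replicate 1 each time, and WT replicate 2 was also below the other 6 arrays in all 3 genes (8.44, 3.01 and 7.42 in the order below). Ppp1r3b read 8.50 there and 9.45 to 9.84 in the other 4. Ppp1r3g, another targeting subunit, read 2.65 (below the dim limit of 2.88) against 3.34 to 3.43. Ppp1r1a, a phosphatase inhibitor, read 7.32 against 7.71 to 7.87. The WT group of 3 is too small for this examination.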

How the results depend on the processing

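By limma, 0 genes passed an adjusted p of 0.05 in all genes, in the 9 glycogen genes and in the wider list under each of the 18 alternatives, with 422 to 1019 genes at an unadjusted p below 0.05 and a smallest adjusted p of 0.181. Of the 9 glycogen genes, 6 kept their sign in every alternative run. Gys1 turned to 0.0010 with the replicate block. Abhd15 KO replicates 4 and 5 share their number with no WT array, so the difference under that block leaves them out. Under that block, a fit for numbers that did not pair the mice, Gys2 differed by 0.39, Pygb by −0.14, Pygm by −1.14, Ppp1r3d by 0.32 and Stbd1 by 0.28. Ppp1r3a differed by −1.135 and Phkg1 by −0.19 (its sign turned), and the block changed no call at the adjusted threshold. Leaving out 1 array gave −1.39 to 0.0027 for Pygm, −0.042 to 0.15 for Ugp2, −0.90 to 0.36 for Ppp1r3a, −0.25 to 0.49 for Ppp1r3b, −0.41 to 0.60 for Phkg1 and −0.071 to 0.50 for Hk2. Without WT replicate 3 the unadjusted limma p was 0.0481 for Pygm and 0.0337 for Ppp1r3c. For each this was the only 1 of the 18 alternatives below 0.05. Ppp1r3a turned to 0.36 with the muscle mean as a covariate, and Ppp1r3b to −0.024 without both arrays lowest in Angptl8 and Ppp1r3c. Without the 2 arrays farthest from the median of the muscle mean, r turned to 0.43 for Gbe1, 0.18 for Pygl and 0.35 for Ugp2, and the cause of these turns was not tested.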

Other observations

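In 3 of 37 tested genes of the wider glycogen list, WT replicate 2 and Abhd15 KO replicate 1 were the highest arrays. That is 8.11%, no larger a share than the 9.6% of all tested genes, and 0 of the 9 glycogen genes had that order. Gyg, the glycogenin primer, read 9.50 and 9.33 in this pair, and between 8.87 and 9.16 elsewhere. Laforin (Epm2a) read 5.63 and 5.49 against 4.94 to 5.31, and Phkb, a regulatory subunit of phosphorylase kinase, 8.11 and 7.88 against 7.40 to 7.84. G6pc, the glucose 6-phosphatase of liver, read 2.44 to 3.34 in the 8 arrays, around the dim limit of 2.88.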
